A study of Mus musculus with 18 samples.

Results

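Azoxymethane (AOM) is a chemical carcinogen that gives rodents tumours of the intestine, and St. John's wort (SJW) is a medicinal herb. The measurements described here ask whether the change in gene expression after AOM differed between mice fed a control diet and mice fed a diet with SJW, in intestine outside tumours. The 12 arrays of non-tumour tissue, of 18 arrays in the series, form a 2 by 2 design with 4 groups of 3: control diet and saline, control diet and AOM, SJW diet and saline, SJW diet and AOM. All 4 groups are male C57BL/6 mice, and the series design calls the 3 samples of a group biological replicates. The AOM dose, the amount of SJW, the age of the mice and the time from injection to collection are not given in the sources used here. The tumour arrays were not used in these comparisons.

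After activation by cytochrome P450 enzymes AOM methylates DNA, and it is used as a model of colorectal tumour formation. Hyperforin, a constituent of SJW, activates the pregnane X receptor, a nuclear receptor that switches on drug-metabolising enzymes such as Cyp3a11 and the drug efflux pumps of the Abcb1 genes. Renewal of the intestinal lining runs from Lgr5-positive stem cells to absorptive cells and to goblet, Paneth and enteroendocrine cells.

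Each array set the RNA of 1 sample, in red (Cy5), against a commercial pool of mouse RNA from several organs, in green (Cy3), so a log2 ratio above 0 stands for a transcript richer in the intestine sample than in that pool. Values without another unit below are log2 ratios. The median red intensity was 133 to 375 and the median green intensity 198 to 593, with 66.1% to 83.5% of probes well above background in red. The labels name small intestine and the extraction protocol names liver. Intestinal marker genes were high on every array, such as Cdx2 at 3.82 to 6.22, and so was the large-intestine gene Car1, at 6.34 to 8.38. Other large-intestine genes were lower than Car1, such as Car4 at 1.60 to 3.70. The small-intestine gene Lct, which encodes lactase, was at -0.24 to 0.91 and above background on 8 of 12 arrays. Other small-intestine genes were detected more widely. Sis was at 0.04 to 1.48 and Slc10a2 at -1.93 to 1.82, both above background on 12 arrays, and Fabp6 was at 0.36 to 3.03, on 11. The liver gene Alb was at -4.08 to -1.90. Each of the 3 slides held 1 array of every group, numbered as the replicates are, so slide was a term in the fit of 23649 genes, of which 15947 have a symbol.

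The difference of the AOM changes (SJW diet minus control diet), called the interaction below, passed the test for 0 of 23649 genes (percent called 0; limma, Benjamini-Hochberg adjustment at 0.05; smallest adjusted p = 0.541). At an unadjusted p under 0.05 there were 2096 genes, 8.86% of those tested, with 550 positive (2.33%) and 1546 negative (6.54%). That share was 4.32% with the red channel alone and 4.92% with the deposited values. It was 14.4% without control saline replicate 3, 5.19% without control saline replicate 2, 5.1% without SJW saline replicate 3 and 4.69% without SJW AOM replicate 3. The median SE of an interaction was 0.25, and the median 95% interval reached 0.56 to either side. The adjusted test needs more than that, since an interaction of -1.70 ± 0.23 (Cldn4, described next) did not pass it. No gene described below passed the interaction test, and each is named by the size of its interaction or its rank, so the difference between diets is not established for any of them. Unless another value is given, the adjusted p of each interaction is 0.541.

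The gene with the smallest p was Cldn4, which encodes the tight junction protein claudin-4 of epithelial cells. It was at 1.37, 1.13 and 1.02 on the control saline arrays and at 2.51, 3.03 and 2.33 on the control AOM arrays. It was at 2.16, 2.36 and 2.09 on the SJW saline arrays and at 2.07, 1.92 and 1.89 on the SJW AOM arrays. The 2 control-diet groups did not overlap, and on the SJW diet each AOM array lay below each saline array. How many of all genes show such a separation within a diet was not counted. Here and for the genes below it only describes values by which the genes were picked. On the control diet Cldn4 rose after AOM by 1.45 ± 0.16 (SE, n = 3; adjusted p = 0.0216, limma), while the change on the SJW diet was -0.25 ± 0.16 (adjusted p = 0.413). The interaction was -1.70 ± 0.23, at -1.24, -2.35 and -1.51 within the 3 slides. It ranged from -2.16 to -1.51 over the other settings and left-out arrays.

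Sprr1a encodes a small proline-rich protein, a precursor of the cornified envelope that epithelia make under stress. Its log2 ratio was -0.68, -0.62 and -1.02 on control saline arrays and 1.48, 1.84 and 1.50 on control AOM arrays. On the SJW diet it was -0.55, 0.19 and 0.71 after saline and 0.38, 0.33 and 0.31 after AOM, so these 2 groups overlapped. Sprr1a rose by 2.38 ± 0.26 after AOM on the control diet (adjusted p = 0.0215, limma), and its interaction was -2.16 ± 0.37. The related gene Sprr2e was at 3.57, 4.06 and 3.55 on control saline arrays, 4.79, 4.88 and 4.27 on control AOM arrays, 4.10, 4.05 and 3.98 on SJW saline arrays, and 3.98, 3.74 and 3.58 on SJW AOM arrays. Its interaction was -1.20 ± 0.23, and -1.88 to -0.30 over the other settings. Sprr2 genes have closely related sequences, so the value is uncertain as that of a single gene.

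The 250 bases upstream of the RefSeq gene start are shown for these 3 genes, in gene sense, because each holds TGACTCA, the core sequence bound by AP-1 transcription factors, on one strand or the other (in capitals, as TGACTCA or TGAGTCA).

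Cldn4: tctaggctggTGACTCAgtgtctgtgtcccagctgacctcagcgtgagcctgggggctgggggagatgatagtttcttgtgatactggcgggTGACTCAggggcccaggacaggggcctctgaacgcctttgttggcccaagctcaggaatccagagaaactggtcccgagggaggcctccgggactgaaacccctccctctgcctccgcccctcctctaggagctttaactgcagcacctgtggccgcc
Sprr1a: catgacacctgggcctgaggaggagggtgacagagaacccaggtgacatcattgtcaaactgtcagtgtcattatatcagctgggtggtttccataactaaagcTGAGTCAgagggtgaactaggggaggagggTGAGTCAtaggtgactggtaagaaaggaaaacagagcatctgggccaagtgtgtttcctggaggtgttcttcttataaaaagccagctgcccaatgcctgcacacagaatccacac
Sprr2e: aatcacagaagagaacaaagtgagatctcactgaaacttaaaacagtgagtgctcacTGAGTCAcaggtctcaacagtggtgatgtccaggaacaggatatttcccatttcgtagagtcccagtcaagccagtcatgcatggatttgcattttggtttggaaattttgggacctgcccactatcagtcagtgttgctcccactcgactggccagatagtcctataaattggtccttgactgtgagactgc

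On RefSeq build GRCm38.p6 these windows are chr5:134946935-134947184 on the minus strand for Cldn4, chr3:92485882-92486131 on the minus strand for Sprr1a and chr3:92351893-92352142 on the plus strand for Sprr2e. Cldn4 and Sprr1a hold 2 matches each and Sprr2e holds 1. Of 32851 promoter windows of the same 250 bases in the RefSeq table, 1466 (4.46%) hold the motif on either strand. Among the 12 negative genes with the smallest p, 11 had a promoter in the table and 4 held the motif (the fourth is Rbp4). Among the 12 positive genes, 8 had a promoter in the table and 0 held it. A match describes the sequence only, the motif was picked after the genes were known, and binding was not measured.

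Rbp4, Klrd1 and Manf also combined a negative interaction with a change after AOM that passed on the control diet. Rbp4, the retinol carrier, rose by 1.04 ± 0.16 after AOM on the control diet (adjusted p = 0.0426, limma), against -0.14 ± 0.16 on the SJW diet. Klrd1, which encodes the CD94 receptor of natural killer cells, rose by 1.24 ± 0.20 on the control diet (adjusted p = 0.0492), against -0.00 ± 0.20 on the SJW diet. Its arrays were at -0.28, -0.13 and -0.54, then 0.81, 0.95 and 0.99 after AOM on the control diet, and at -0.36, -0.22 and 0.38, then 0.04, -0.26 and 0.00 on the SJW diet. The 3 control AOM arrays lay above the 9 others, as they did for 1.27% of all genes. Manf, a protein secreted under endoplasmic reticulum stress, rose by 0.90 ± 0.13 on the control diet (adjusted p = 0.0381), against 0.33 ± 0.13 on the SJW diet. Over 24 other settings and left-out arrays, the control-diet change kept passing in 6 for Rbp4, in 8 each for Klrd1 and Manf, and in 19 each for Cldn4 and Sprr1a. A call on 1 diet only is not a difference between diets, because both changes carry error and only the interaction tests their difference. These genes were also picked by their interaction, which uses the same control-diet arrays, so the pick favours a call on that diet. In addition, the adjusted cutoff fell at a different p on each diet. Klrd1 passed on the control diet at an unadjusted p = 0.000135 (limma). On the SJW diet Abcb1a, described below, changed by -2.05 ± 0.25 at an unadjusted p = 1.24e-05 and did not pass (adjusted p = 0.0516).

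Mmp7 encodes matrilysin, the protease that activates Paneth cell defensins. It was at 0.30, -0.06 and 1.41 on control saline arrays and 1.91, 2.45 and 2.92 on control AOM arrays, which did not overlap. It was at 0.98, -0.13 and 2.31 on SJW saline arrays and 0.14, 0.84 and 1.62 on SJW AOM arrays, which did. Its interaction was -2.06 ± 0.49. Duoxa2, the maturation factor of an epithelial oxidase, had an interaction of -2.29 ± 0.67, Krt23, a keratin, of -2.20 ± 0.56, and Mmp9, a gelatinase, of -0.96 ± 0.26. The largest negative interaction among genes with an unadjusted p under 0.01 was that of Clca4b, a secreted or membrane-bound protein of the calcium-activated chloride channel regulator family, at -3.74 ± 1.06. Its 95% interval was -6.12 to -1.36, and the control saline arrays spread from 2.01 to 5.06.

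**Figure D1:**
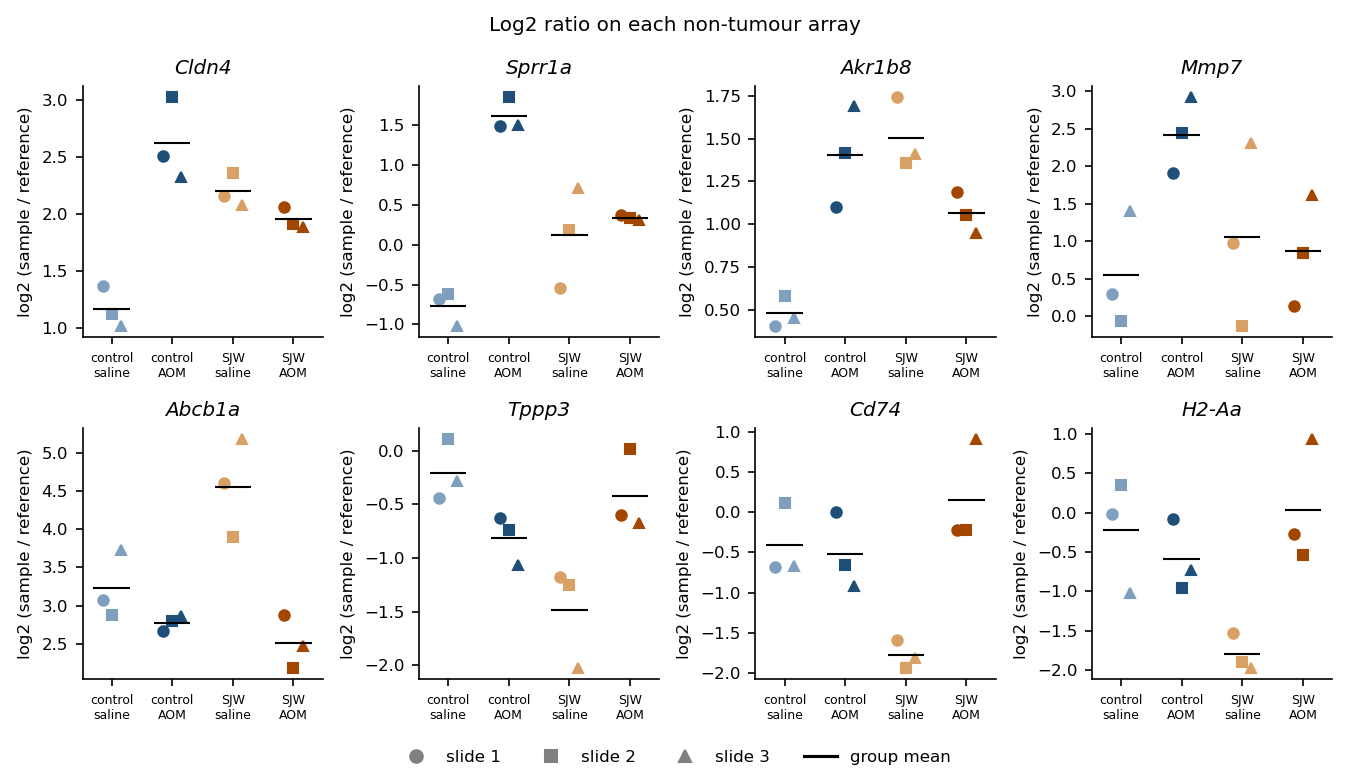
Log2 ratio of sample over reference pool on each of the 12 non-tumour arrays for 8 genes, by group; each point is 1 array, its shape is the slide, and bars are group means. Cldn4 lies at 1.02 to 1.37 after saline and 2.33 to 3.03 after AOM on the control diet, and at 1.89 to 2.36 on the SJW diet, while H2-Aa is lowest on the 3 SJW saline arrays.

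A second arrangement was a level in the SJW saline group apart from the other 3 groups. Over all genes the mean of SJW saline arrays stood farthest from the median of the other 3 means in 38.1% of genes, against 18% to 22% for each other group. All 3 SJW saline arrays lay above the 9 others for 639 genes (2.7%) and below them for 375 (1.59%).

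Abcb1a, the P-glycoprotein drug efflux pump, was at 3.08, 2.88 and 3.72 on control saline arrays and at 2.66, 2.80 and 2.87 on control AOM arrays. It was at 4.60, 3.89 and 5.18 on SJW saline arrays and at 2.88, 2.18 and 2.47 on SJW AOM arrays. All 3 SJW saline arrays lay above the 9 others. Averaged over diets Abcb1a fell after AOM by 1.25 (adjusted p = 0.0101, limma), and its interaction was -1.60 ± 0.35. The size of that interaction ranged from -1.82 to -0.64 over the other settings. Its neighbour in the family, Abcb1b, was at 3.23, 3.45 and 3.37, then 2.01, 2.23 and 2.33 on the control diet and at 4.55, 4.0 and 4.18, then 2.77, 1.84 and 1.74 on the SJW diet. It fell after AOM by 1.64 on average over diets (adjusted p = 0.00624), with an interaction of -0.97 ± 0.35. With the deposited values the interaction of Abcb1b was 0.09 and its averaged AOM change missed the threshold (adjusted p = 0.23).

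Cyp3a11, the main target enzyme of the pregnane X receptor, did not share this arrangement. It was at 0.36, 0.63 and 1.15 after saline and -0.31, 0.04 and -0.42 after AOM on the control diet, and at 0.82, 0.15 and 1.24, then 0.01, -0.42 and -0.03 on the SJW diet. It fell by 0.91 on average after AOM (adjusted p = 0.0323, limma), and its interaction was 0.06 ± 0.38 (adjusted p = 0.962), with a sign that turned in 4 left-out arrays. Over 24 other settings and left-out arrays the averaged change was -1.31 to -0.66 and lost its call in 10 (adjusted p up to 0.0963). Of 45 measured genes of xenobiotic metabolism, 36 had a negative and 9 a positive interaction, and 0 passed. At an unadjusted p under 0.05, 10 were negative, beside 6.54% of all genes. Their median was -0.42, beside -0.04 over all genes, of which 45.8% were positive. Within the 3 slides the median of the 45 was -0.555, -0.073 and -0.895. Averaged over diets 17 of the 45 fell after AOM and 0 rose (over all genes 1.65% fell and 2.58% rose).

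Akr1b8, an aldo-keto reductase that detoxifies reactive aldehydes, was at 0.41, 0.58 and 0.45 on control saline arrays. It was at 1.1, 1.42 and 1.69 after AOM on the control diet, at 1.74, 1.35 and 1.41 after saline on the SJW diet, and at 1.19, 1.05 and 0.95 after AOM on the SJW diet. Its control saline arrays lay below all 9 others, as for 0.651% of all genes, and the interaction was -1.36 ± 0.25. Akr1b7, a related reductase, was at 1.01, 0.72 and 1.69 on SJW saline arrays and between -0.14 and 0.29 on the other 9, with an interaction of -1.11 ± 0.30. Of 25 measured genes of the NRF2 response and the aldo-keto reductases, which defend against oxidants and aldehydes, 22 had a negative interaction and 10 of these an unadjusted p under 0.05 (6.54% of all genes). Their median was -0.40, at -0.40, -0.33 and -0.49 within the 3 slides. Over the other settings and left-out arrays it ran from -1.01 to -0.34. The -1.01 came when arrays were only centred on their medians, where the median of all genes was -0.12. The -0.34 came with the red channel alone.

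Slc9a3, the sodium-proton exchanger that absorbs salt in the colon, was at 2.73, 0.58 and 2.55 on SJW saline arrays and 0.51, -0.30 and 0.09 on SJW AOM arrays. It was at 0.94, 0.13 and 1.30, then 0.75, 1.71 and 1.74 on the control diet, where saline and AOM arrays overlapped, while those on the SJW diet did not. Its interaction was -2.46 ± 0.64. Nupr1, a stress-induced chromatin regulator, had an interaction of -1.77 ± 0.35, with a change after AOM of 0.83 ± 0.25 on the control diet and -0.94 ± 0.25 on the SJW diet, neither of which passed. Homer2, a synaptic scaffold protein, had an interaction of -1.67 ± 0.31, and Dpep1, a membrane dipeptidase, of -1.40 ± 0.27. Elovl6, the fatty acid elongase, had one of -1.06 ± 0.21.

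Lgr5, the marker of intestinal stem cells, was at 0.55, 0.27 and 0.88 on control saline arrays and 1.12, 2.15 and 0.94 on control AOM arrays. On the SJW diet it was at 1.85, 1.00 and 2.00 after saline and 0.65, 0.91 and 0.48 after AOM. The groups of each diet did not overlap, and the order was opposite, but the margins were narrow. The nearest arrays were at 0.88 and 0.94 on the control diet and at 1.00 and 0.91 on the SJW diet. For 2.74% of all genes the AOM change had opposite signs on the 2 diets on all 3 slides, as it did for Lgr5. Its interaction was -1.77 ± 0.51. Of 27 Wnt and stem cell genes 20 were negative, with a median of -0.34, and of 34 proliferation genes 29 were negative, with a median of -0.23.

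**Figure D2:**
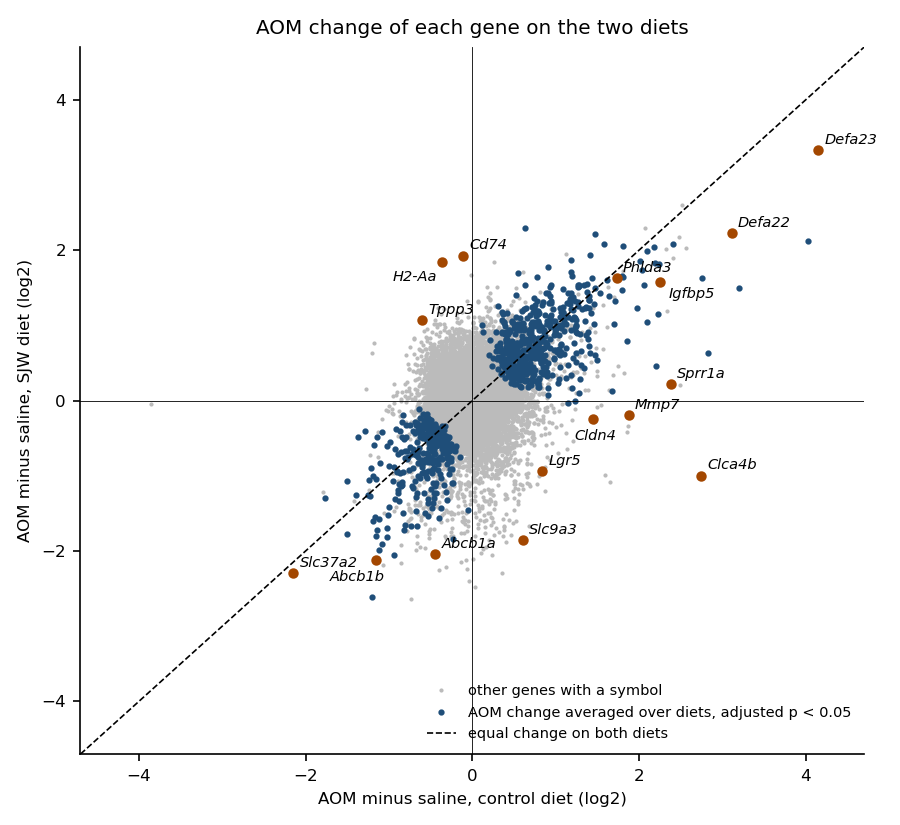
Change after AOM (AOM minus saline, log2) on the control diet against the change on the SJW diet for each gene with a symbol; blue points passed the test of the AOM change averaged over diets, the dashed line marks equal changes, and named genes are in brown. Slc37a2 lies near the line. Defa23 and Igfbp5 lie to the right of the line, Cldn4, Sprr1a and Clca4b lie farther to its right, and Cd74, H2-Aa and Tppp3 lie above it.

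Cd74 and the class II histocompatibility genes, with which antigen-presenting cells show peptides to T cells, were among the genes with the largest positive interactions at an unadjusted p under 0.01. Cd74, the invariant chain, was at -0.68, 0.11 and -0.67 on control saline arrays, -0.00, -0.65 and -0.92 on control AOM arrays, -1.58, -1.93 and -1.81 on SJW saline arrays and -0.22, -0.22 and 0.90 on SJW AOM arrays. H2-Aa was at -0.02, 0.35 and -1.02, then -0.08, -0.95 and -0.73 on the control diet and at -1.53, -1.90 and -1.97, then -0.28, -0.54 and 0.93 on the SJW diet. The 3 SJW saline arrays lay below the 9 others for both genes and for H2-Ab1 and H2-DMa. The interaction was 2.04 ± 0.52 for Cd74, 2.20 ± 0.62 for H2-Aa, 1.69 ± 0.51 for H2-Ab1 and 1.22 ± 0.34 for H2-DMa, which loads peptide on class II molecules. SJW AOM replicate 3 was the highest array for Cd74 and H2-Aa, and with any 1 array left out the interaction of H2-Aa was 1.57 to 2.69. Class II genes have related sequences, so single values are uncertain.

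The upstream window of H2-Aa is shown because class II promoters are known for a CCAAT box, the Y box, which is in capitals here on the other strand as ATTGG.

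H2-Aa: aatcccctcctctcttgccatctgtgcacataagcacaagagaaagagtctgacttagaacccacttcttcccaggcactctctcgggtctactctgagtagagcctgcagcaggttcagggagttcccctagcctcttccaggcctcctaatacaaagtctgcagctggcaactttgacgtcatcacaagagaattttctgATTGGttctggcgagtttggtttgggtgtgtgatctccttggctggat

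This window is chr17:34287824-34288073 on the minus strand (GRCm38.p6), and the match begins at base -48 from the start. CCAAT or its complement occurs in 33.8% of all windows of this length.

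Of 15 measured class II presentation genes, 12 had a positive interaction, 0 passed, and 5 were positive at an unadjusted p under 0.05, beside 2.33% of all genes. Their median was 0.66, at 0.03, 0.51 and 1.38 within the 3 slides and 0.46 to 0.96 with 1 array left out. Their mean log2 ratio was 0.15, -0.04 and -0.18 on SJW saline arrays and 0.19 to 0.96 on the other 9. In whole tissue fewer cells of a type and less RNA per cell cannot be told apart. Of 34 interferon-stimulated genes 30 were positive with a median of 0.53, but only 1 was positive at an unadjusted p under 0.05, beside 2.33% of all genes. SJW saline replicate 3 stood apart in that list, at a mean of 1.37 against -0.53 and -0.23 on the other SJW saline arrays, and the median was 1.07 without it. It was 0.21 without SJW saline replicate 1, 0.33 without SJW saline replicate 2 and 0.16 without control AOM replicate 3.

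T and NK cell genes had 17 of 22 positive members (median 0.47), B and plasma cell genes 19 of 26 (0.44), and macrophage and dendritic cell genes 17 of 22 (0.17), and 0 members of these lists passed. In that order 3, 0 and 2 members were positive at an unadjusted p under 0.05, beside 2.33% of all genes. Negative at that p were 1, 1 and 0, beside 6.54%. Slide 1 went the other way in each list. Within slides the medians were -0.12, 0.71 and 0.67 for T and NK cell genes. They were -0.56, 0.26 and 1.35 for B and plasma cell genes and -0.28, 0.16 and 0.80 for macrophage and dendritic cell genes. Lyz2, the lysozyme of macrophages, had an interaction of 1.58 ± 0.64 (adjusted p = 0.544), which was 0.99 without control saline replicate 2, and Laptm5, a lysosomal protein of blood cells, of 1.22 ± 0.51 (adjusted p = 0.56). Klrd1, above, went the other way. Pancreatic acinar genes had a mean of 3.56 on SJW AOM replicate 3, where the class II, T and NK, B and plasma, and macrophage and dendritic lists were each at their highest. Their mean was 1.04 and 1.79 on SJW saline replicates 1 and 2, where the T and NK list had its lowest values, against -0.38 to 0.38 on the other 9 (1 gene of that list, Zg16, is also in the goblet cell list). Their part in the immune values was not tested; without SJW AOM replicate 3 the medians were 0.47 for class II genes, 0.40 for T and NK cell genes, 0.16 for B and plasma cell genes and 0.06 for macrophage and dendritic cell genes.

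**Figure D3:**
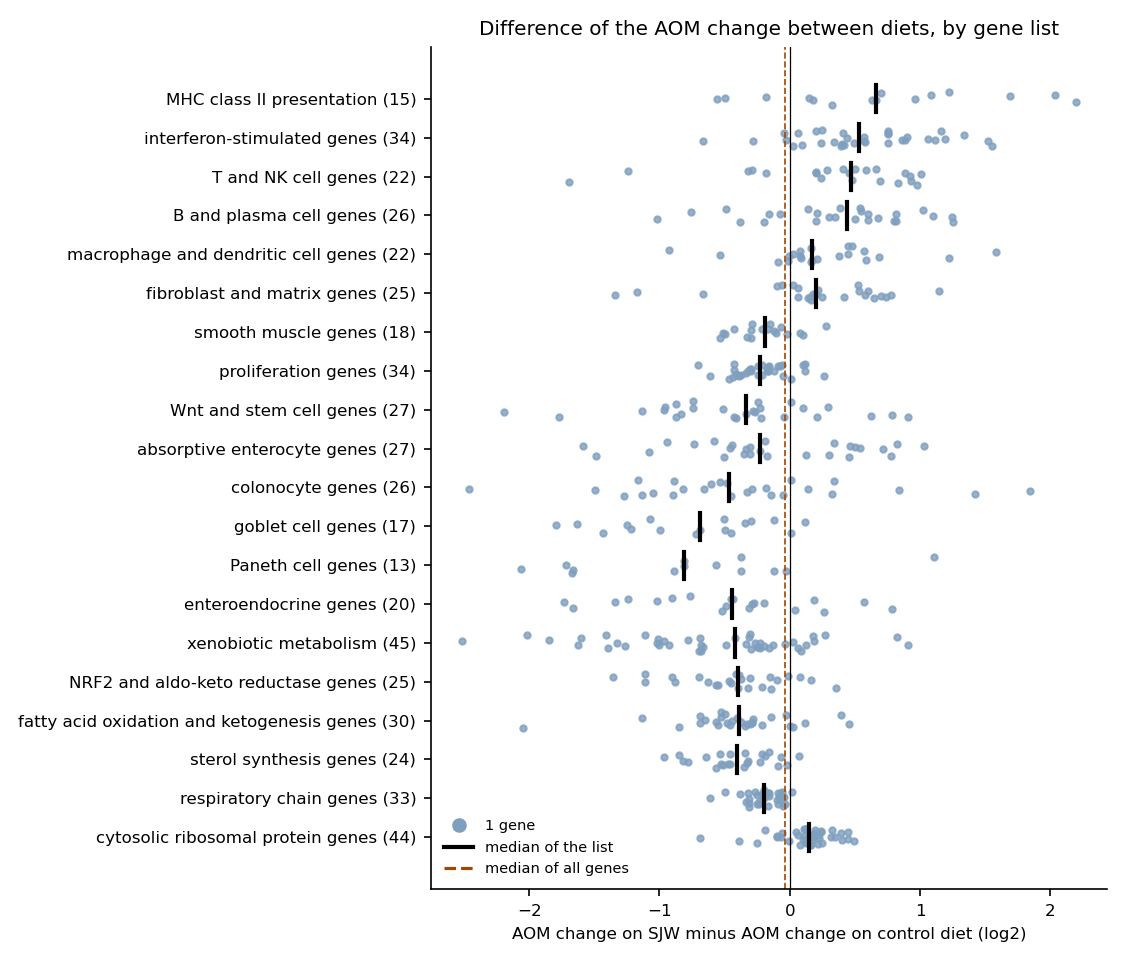
Interaction (AOM change on the SJW diet minus AOM change on the control diet, log2) of each measured member of 20 gene lists, with list sizes in brackets; each point is 1 gene, black bars are list medians and the dashed line is the median of all genes. Class II genes have a median of 0.66, goblet cell genes of -0.69 and Paneth cell genes of -0.81.

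Genes of the secretory lineages had mostly negative interactions. Of 17 goblet cell genes 15 were negative, with a median of -0.69 that was -0.85, -0.75 and -0.89 within the slides, and 6 were negative at an unadjusted p under 0.05, beside 6.54% of all genes. The same share of all genes applies to the enteroendocrine, Paneth and fatty acid oxidation counts given next. Zg16, a lectin of goblet cell granules, was at 5.80, 5.72 and 5.90, then 6.46, 6.36 and 5.83 on the control diet and at 6.50, 6.23 and 6.82, then 6.04, 5.49 and 5.60 on the SJW diet. SJW arrays after AOM lay below those after saline, and the control groups overlapped. Its interaction was -1.22 ± 0.29. Of 20 enteroendocrine genes 15 were negative (median -0.45, and -0.26 without SJW AOM replicate 3; 7 at an unadjusted p under 0.05), with Gcg, the glucagon and GLP-1 precursor, at -1.73 ± 0.51 and Sct, secretin, at -1.34 ± 0.41. Pax4, a transcription factor of endocrine precursors, had one of -2.48 ± 0.70. Paneth cell genes had 12 of 13 negative members (median -0.81), at -1.16, -1.54 and 0.31 within slides, so slide 3 went the other way, and 1 member was negative at an unadjusted p under 0.05. The Paneth median was -0.26 without control AOM replicate 2, -0.47 without SJW AOM replicate 1 and -0.49 without SJW saline replicate 1.

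Of 26 colonocyte genes 19 were negative, with a median of -0.46 that was -0.26 without control saline replicate 1 and -0.29 without control AOM replicate 2. Of 27 absorptive enterocyte genes 11 were positive (40.7%), near the 45.8% of all genes, and their median of -0.23 was -0.32, 0.09 and 0.00 within slides and 0.03 with the red channel alone. Mep1b, a brush border protease, was at -1.59 ± 0.41, Fabp2, the intestinal fatty acid binding protein, at -1.49 ± 0.48 and Aqp4, a water channel, at -1.27 ± 0.31. Of 30 genes of fatty acid oxidation and ketogenesis 25 were negative and 10 of these had an unadjusted p under 0.05 (median -0.39, and -0.40, 0.04 and -0.63 within slides), among them Slc25a20, the mitochondrial carnitine carrier, at -1.14 ± 0.29 and Decr1, an enzyme for unsaturated fatty acids, at -0.69 ± 0.18. Sterol synthesis genes were negative in 23 of 24 (median -0.40; -0.11 without SJW saline replicate 2) and respiratory chain genes in 32 of 33 (median -0.20). The medians of 11 general intestinal epithelium genes (-0.29) and 18 smooth muscle genes (-0.19) were negative too, and the smooth muscle median ran from -0.76 to 0.85 within slides. With the red channel alone the interaction was smaller for several negative genes, at -0.96 for Lgr5, -1.30 for Pax4, -0.90 for Duoxa2, -0.68 for Sct, -0.83 for Mep1b and -0.37 for Mmp9. How far the cell makeup of the samples moves with the negative lists was not tested.

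**Figure D4:**
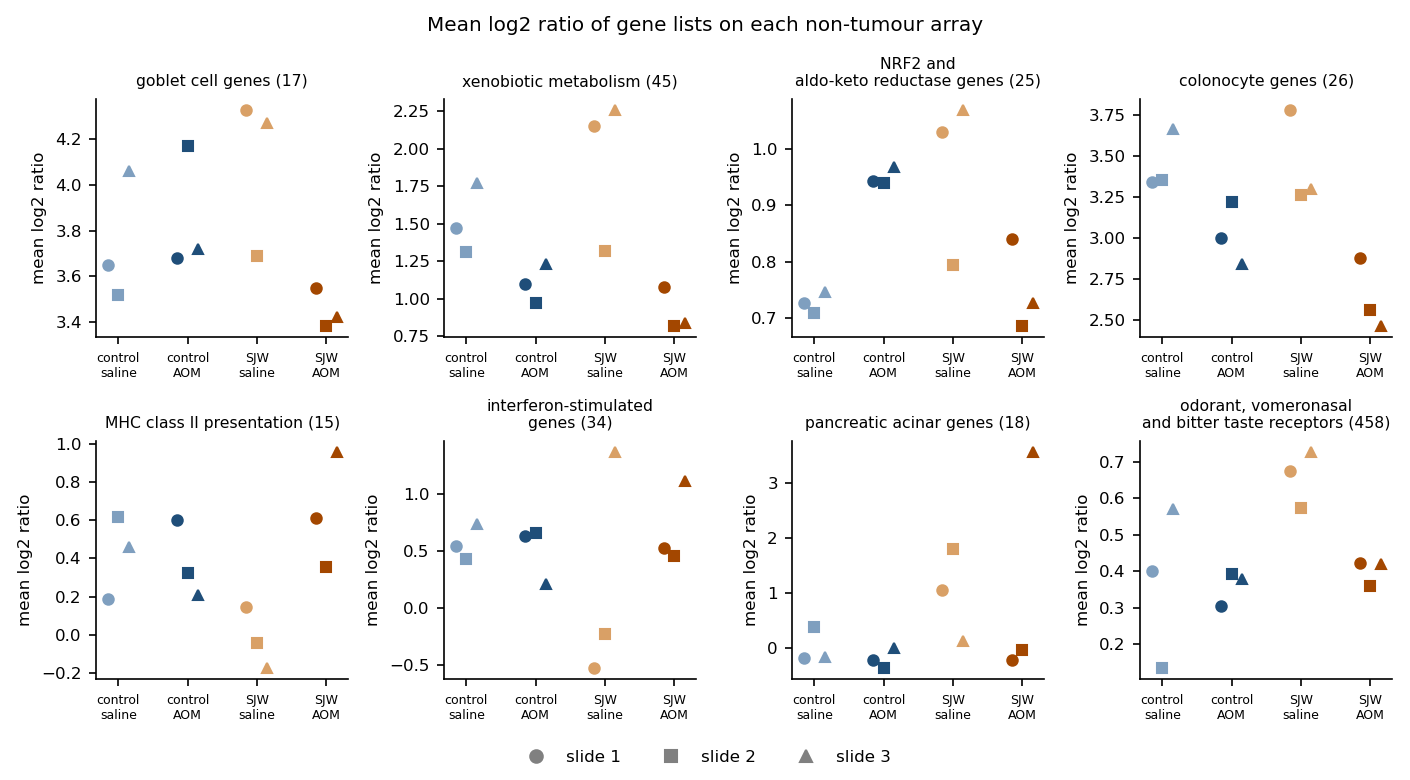
Mean log2 ratio of 8 gene lists on each non-tumour array, by group, with the number of genes in brackets; each point is 1 array and its shape is the slide. Pancreatic acinar genes reach 3.56 on SJW AOM replicate 3, and NRF2 and aldo-keto reductase genes lie at 0.71 to 0.75 on control saline and 0.94 to 0.97 on control AOM arrays.

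The positive gene with the smallest p was Tppp3, a tubulin-binding protein. It was at -0.44, 0.10 and -0.28, then -0.63, -0.74 and -1.07 on the control diet and at -1.18, -1.25 and -2.02, then -0.60, 0.01 and -0.68 on the SJW diet. On the control diet all AOM arrays lay below all saline arrays, on the SJW diet above them, and the interaction was 1.67 ± 0.28. Fgf18, a growth factor, was at 0.73, 0.44 and 0.69 on control saline arrays and at or below 0.31 on the 9 others (0.677% of all genes had control saline arrays above the rest), with an interaction of 1.16 ± 0.29. Smim24 fell after AOM by 1.28 ± 0.16 on the control diet (adjusted p = 0.0241, limma), against -0.40 ± 0.16 on the SJW diet, an interaction of 0.88 ± 0.23 that was 0.25 with median centring. That fall lost its call in 9 of 23 other settings and left-out arrays (adjusted p up to 0.218). The clock gene Per1 had an interaction of 0.81 ± 0.26. Its clock-controlled relative Dbp fell by 0.64 on average after AOM (adjusted p = 0.0158), with an interaction of 0.53 ± 0.21 (adjusted p = 0.544) that was -0.02 with median centring.

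Some AOM changes were shared by the diets. The AOM change averaged over diets passed for 1002 genes (4.24%), with 611 higher and 391 lower. Of the 1002, 999 had the same sign on both diets, but picking genes by the averaged change favours a shared sign. That count is therefore no independent support for a shared change. Over all 23649 genes, without this selection, the AOM changes on the control diet and on the SJW diet correlated at 0.32. The interval of the interaction included 0 for 881 of the 1002, which does not show that the changes were equal. Of the 1002, 222 had an interval for the interaction that reached less far from 0, on both sides, than the size of their averaged change. Taken diet by diet 68 genes (0.288%) passed on the control diet and 1 (0.00423%) on the SJW diet. At an unadjusted p under 0.05 (limma) the order was opposite, with 3361 genes (14.2%) on the control diet and 4677 (19.8%) on the SJW diet. These counts do not compare the diets, and the difference between the diets is what the interaction tests.

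Defa23 and Defa22, antimicrobial defensins of Paneth cells, rose most among the 6 named genes with the smallest p for a rise. Defa23 was at -0.13, -0.12 and 0.23, then 4.41, 4.81 and 3.20 on the control diet and at -0.85, -0.45 and -0.01, then 2.04, 2.94 and 3.71 on the SJW diet. No saline array overlapped an AOM array. Its averaged change was 3.74 (adjusted p = 0.00292, limma), and its interaction of -0.81 ± 0.64 (adjusted p = 0.651) had a 95% interval of -2.25 to 0.63. Defensin sequences are closely related, and Defa23 was well above background on 2 of 3 control saline and 1 of 3 SJW saline arrays. It was therefore kept in the test only through AOM arrays, where it is high. The separation of saline from AOM arrays is thus no independent support, and the size is uncertain. Phlda3, a p53 target that restrains AKT, rose by 1.68 on average (adjusted p = 0.00359) with an interaction of -0.10 ± 0.31 (adjusted p = 0.911), and Igfbp5, an insulin-like growth factor binding protein, rose by 1.92 (adjusted p = 0.00185) with one of -0.67 ± 0.29 (adjusted p = 0.563). Lama4, a laminin chain, rose by 0.89 (adjusted p = 0.00568) with one of 0.08 ± 0.18 (adjusted p = 0.885), and Ptn, a growth factor, rose by 1.40 (adjusted p = 0.00292) with one of 0.24 ± 0.24 (adjusted p = 0.712).

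Slc37a2, a sugar phosphate transporter of the colon, fell by 2.22 on average after AOM (adjusted p = 0.00258, limma). It was at 4.29, 4.25 and 3.98, then 2.15, 2.52 and 1.40 on the control diet and at 4.56, 4.35 and 4.34, then 2.84, 1.80 and 1.72 on the SJW diet, with an interaction of -0.14 ± 0.36 (adjusted p = 0.896). Col4a3, a basement membrane collagen, fell by 1.28 (adjusted p = 0.00624), Cyp2c29, a drug-metabolising cytochrome, by 1.1 (adjusted p = 0.00807) and Ephx2, soluble epoxide hydrolase, by 0.72 (adjusted p = 0.00749). The interaction was 0.44 ± 0.28 for Col4a3 (adjusted p = 0.601), 0.12 ± 0.27 for Cyp2c29 (adjusted p = 0.876) and 0.02 ± 0.17 for Ephx2 (adjusted p = 0.964). Of 25 fibroblast and matrix genes 19 rose, of 34 proliferation genes 8 rose, of 30 heat shock and endoplasmic reticulum stress genes 10 rose, and of 26 colonocyte genes 8 fell, beside 2.58% of all genes that rose and 1.65% that fell. Over the other settings and left-out arrays these counts were 6 to 20, 0 to 15, 1 to 13 and 2 to 12, and 7 to 22 for the fall of xenobiotic genes. Without control AOM replicate 1 they were 6, 1, 3 and 3, and 7. Of 18 smooth muscle genes 5 rose, and 0 without that array. The median averaged change was 1.45 for smooth muscle genes and 1.13 for fibroblast and matrix genes. The mean of the smooth muscle list was -0.99 to 0.58 on control saline and -0.80 to 0.12 on SJW saline arrays. It was 0.705 to 2.00 on control AOM and 0.21 to 2.23 on SJW AOM arrays. How far the muscle content of the samples moves with these AOM changes was not tested.

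**Figure D5:**
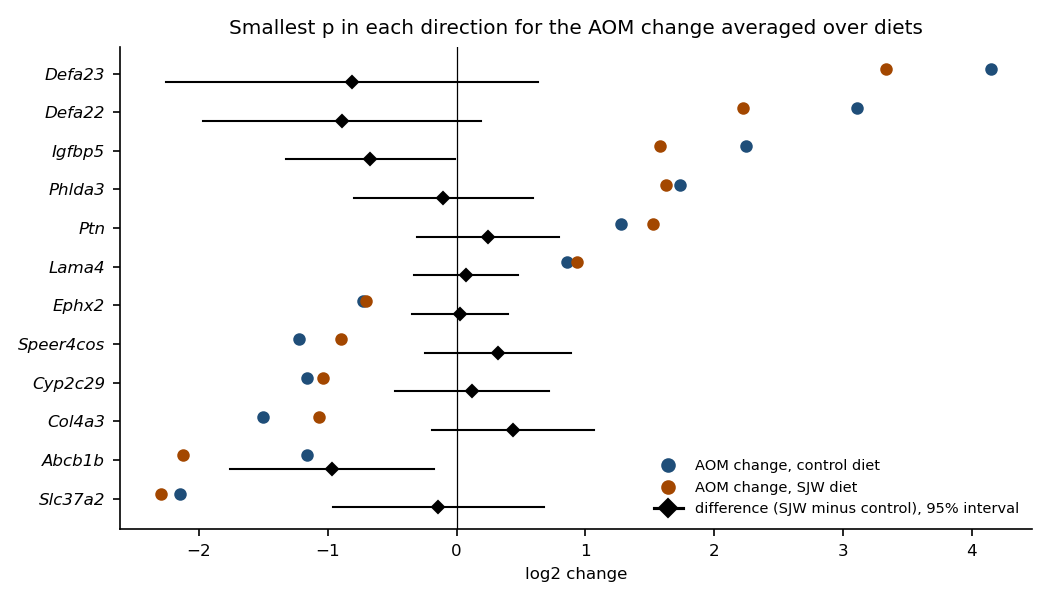
The 6 named genes that rose and the 6 that fell with the smallest p for the AOM change averaged over diets: log2 change after AOM on the control diet (blue) and on the SJW diet (brown), and their difference with its 95% interval (black diamonds and lines). Defa23 and Defa22 have the widest intervals and Ephx2 the difference nearest 0, at 0.02.

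The SJW change averaged over saline and AOM passed for 0 of 23649 genes (1387 genes, 5.86%, at an unadjusted p under 0.05; limma). Dim probes carried more of the unadjusted signal of the interaction. In 5 equal bins from the dimmest to the brightest genes the share at an unadjusted p under 0.05 was 11.5%, 11.2%, 9.41%, 6.28% and 5.92%, and the median interaction in the dimmest bin was -0.17. The 458 measured odorant, vomeronasal and bitter taste receptor genes, which the intestine is not known for expressing widely, had a median of -0.17 with 318 negative. Their mean was 0.58 to 0.73 on SJW saline arrays, against 0.13 to 0.57 on the other 9. That median turned to 0.19 with the red channel alone and 0.21 with median centring. Median green intensity was 507 to 593 on 5 arrays (replicates 2 and 3 of the control saline group, 1 and 3 of the SJW saline group, and 2 of the control AOM group) and 198 to 263.5 on the others, and its part in the interaction was not tested beyond the covariate fit, in which 0 genes passed.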

How the data were processed

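The members are the 12 non-tumour arrays. Members, gene lists and tests were chosen with earlier results of these data known. Per the file headers, arrays were read with Agilent Feature Extraction 10.10.1.1, protocol GE2_1010_Sep10, and annotated on mm9. The deposited intensity values are median spot and background signals; the scanner's log10 ratio and the authors' deposited log2 values (r at least 0.996 with the scanner ratio, direction the same) served as alternatives. Further steps by the authors are not given in the sources used here.

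Background was corrected with normexp (offset 50), ratios were normalized by loess within arrays, and control and outlier spots were left out. A probe was kept if all 3 arrays of at least 1 group read it well above background in red (31049 of 41174), with the brightest probe per gene. RefSeq accessions named 27050 probes. limma 3.58.1 in R 4.3.3 (data.table, version 1.17.8) fitted 12 arrays with slide as a block (6 residual degrees of freedom). The headers show each slide to hold 1 array of each group. Deviations from group means correlated at -0.33 to 0.40 (median 0.09) between same-numbered arrays of different groups. Between differently numbered arrays of different groups they correlated at -0.47 to 0.46 (median -0.03). P-values were adjusted within each of 7 contrasts. Named genes were the 12 smallest p each way, the 6 largest interactions each way at an unadjusted p under 0.01, the 2 smallest-p members of each list, the 6 smallest p each way for the averaged AOM change, and Cyp3a11, Abcb1a, Cd74, H2-Aa and Akr1b8; some are left out of the text. Fits were tested on simulated data with planted interactions larger than that of any gene named above. That test therefore does not show how small a difference these arrays can detect. The number of arrays limits precision.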

Additional observations from a re-analysis of the deposited data

How the results depend on the processing

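The interaction and the averaged SJW change called 0 genes in all 12 other settings and with each of the 12 arrays left out. Among these settings, the fit of all 18 arrays, tumours included, tested 26079 genes and called 1358 for the averaged AOM change. Without the replicate block the interaction called 0 genes and the averaged AOM change 1234, of which 891 were among the 1002; the block comes from the shared slide. The averaged AOM change called 650 genes with median centring (562 higher, 88 lower), 2162 with the scanner's log ratio (711 and 1451), 1592 with the deposited values (568 and 1024), 2467 without background correction, 2416 with array weights, 509 with reference brightness as a covariate and 243 with position on the slide as a further block, chosen after seeing the data; the red channel alone gave 1284 (604 and 680). Leaving out 1 array gave 217 (control AOM replicate 1) to 1163, with 308 without control saline replicate 1, 650 without control saline replicate 3, 329, 605 and 318 without SJW saline replicates 1, 2 and 3, and 462, 434 and 357 without SJW AOM replicates 1, 2 and 3. The cause of these moves was not tested. Of 36 lists, 19 kept the sign of their median interaction in every setting; MHC class I, ribosomal and circadian lists turned negative with median centring (-0.46, -0.56 and -0.13).

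Signs of named interactions turned, none of them called, as follows. With median centring they were -0.0178 for Dbp, -0.11 for Acly, -0.31 for Rpl13a, -0.19 for Ptn, -0.016 for Col4a3, -0.43 for Ephx2 and -0.16 for Cyp2c29. With the red channel alone they were -0.11 for Plekho2, -0.0209 for Rpl13a, -0.34 for Lama4 and 0.24 for Slc37a2. With the scanner's log ratio they were -0.19 for Ptn, -0.34 for Lama4 and 0.0659 for Slc37a2. With the deposited values they were -0.0259 for Tgtp1, 0.22 for Igfbp5, -0.34 for Lama4, 0.0659 for Slc37a2 and 0.0905 for Abcb1b. Without background correction they were -0.10 for Ptn and -0.30 for Lama4, and with the mean of probes -0.11 for Lama4. With array weights they were -0.0674 for Lama4, 0.0208 for Slc37a2 and -0.0381 for Ephx2. With the brightness covariate they were 0.0792 for Phlda3 and 0.0605 for Slc37a2, and with the position block 0.11 for Slc37a2 and -0.0173 for Ephx2. With 1 array left out they ranged from -0.32 to 0.13 for Phlda3, -0.0543 to 0.0896 for Ephx2, -0.22 to 0.35 for Cyp3a11, -0.44 to 0.16 for Slc37a2 and -0.0527 to 0.35 for Cyp2c29.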
